A study of Mus musculus with 5 samples.

Results

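The genes described here serve the endoplasmic reticulum (ER), the compartment where secreted and membrane proteins enter the secretory route and fold. They comprise ER chaperones, disulfide and prolyl isomerases, parts of the translocon and signal peptidase, ER-associated degradation (ERAD) genes, the stress sensors and Xbp1. The list names 39 genes, and 38 of them had a probe set annotated to a single gene. Sec61g, which encodes a small subunit of the protein channel, had none and is not analysed here. For a gene with several probe sets, the one with the highest mean over the arrays was used, and the whole table held 12394 genes treated in the same way.

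RNA came from ID8 cells, a mouse ovarian cancer line derived from the ovarian surface epithelium. In the ascites group (labelled ASid8, n = 2 arrays, replicates 2 and 3) the cells had been kept for 7 days in DMEM containing 10% ascites fluid, taken from mice that carried ID8 tumours. In the FBS group (labelled id8, n = 3 arrays, replicates 1, 2 and 3) the parental cells grew in DMEM with 10% fetal bovine serum. The sources used here give neither how long the FBS culture lasted, nor whether the ascites medium also contained serum or the fluid had been freed of cells, nor the age or strain of the donor mice. Nothing says that replicates were separate cultures, so the p values rest on array-to-array spread alone, part or all of which may be technical.

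Proteins enter the ER through the SEC61 channel, lose their signal peptide to signal peptidase and receive glycans from oligosaccharyltransferase. Inside, HSPA5 (GRP78) and HSP90B1 (GRP94) hold unfolded chains, the lectins calnexin and calreticulin hold glycoproteins, and the isomerases form and shuffle disulfide bonds. Chains that fail to fold are sent back to the cytosol by ERAD. The sensors IRE1 (Ern1), ATF6 and PERK (Eif2ak3) are restrained by HSPA5 and set off the unfolded protein response when misfolded chains accumulate. ATF6, and XBP1 once its RNA has been spliced by IRE1, switch on chaperone and ERAD genes, whereas PERK phosphorylates eIF2alpha and favours translation of ATF4. The title of the study names GRP78 at the cell surface; the arrays measured RNA and not protein or its place in the cell.

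The promoter element through which ATF6 and the factor NF-Y act on chaperone genes is the ER stress element (ERSE), written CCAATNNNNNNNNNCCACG. Promoter windows of 250 bases before to 50 after the transcription start, from RefSeq on GRCm38.p6, were found for 33 of the 39 genes; Atf6, Sec61a1, Manf, Hyou1, Ostc and Derl1 had none in the table. On either strand, the exact ERSE stood in the windows of 9 of these 33 genes, and in 0.119% of all 32851 windows. The stretches are shown because they mark the genes whose transcripts are followed below. The element is in capitals, sequences run 5′ to 3′ on the strand of the gene, and only bases before the start are printed. Hspa5 is given whole from base -250 to base -1, with its TATA sequence near the start (chr2:34771840-34772089, plus strand).
Hspa5: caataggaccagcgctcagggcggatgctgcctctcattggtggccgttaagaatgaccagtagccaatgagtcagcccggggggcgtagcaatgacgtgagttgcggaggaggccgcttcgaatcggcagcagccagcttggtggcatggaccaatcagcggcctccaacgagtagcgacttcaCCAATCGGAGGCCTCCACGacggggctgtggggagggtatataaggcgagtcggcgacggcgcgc

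Hsp90b1 held 2 copies in opposite orientations (chr10:86705521-86705668, minus strand). The genes Dnajc3 (chr14:118937815-118937857, plus strand), Creld2 (chr15:88819508-88819550, plus strand) and Pdia6 (chr12:17266479-17266521, plus strand) held 1 each, in Creld2 on the opposite strand.
Hsp90b1: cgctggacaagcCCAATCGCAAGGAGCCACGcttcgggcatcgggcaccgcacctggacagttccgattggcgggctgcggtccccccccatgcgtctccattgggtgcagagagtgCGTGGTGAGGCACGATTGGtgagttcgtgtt
Dnajc3: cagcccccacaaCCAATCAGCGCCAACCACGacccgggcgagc
Creld2: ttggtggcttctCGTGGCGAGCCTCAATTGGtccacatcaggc
Pdia6: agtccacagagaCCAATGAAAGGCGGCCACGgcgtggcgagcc

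The remaining matches were in Calr (chr8:84847063-84847105, minus strand), Canx (chr11:50325788-50325830, minus strand), Syvn1 (chr19:6046520-6046562, plus strand) and Derl3 (chr10:75893230-75893272, plus strand).
Calr: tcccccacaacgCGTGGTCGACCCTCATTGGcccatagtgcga
Canx: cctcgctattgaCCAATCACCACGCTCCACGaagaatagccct
Syvn1: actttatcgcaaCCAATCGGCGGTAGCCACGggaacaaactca
Derl3: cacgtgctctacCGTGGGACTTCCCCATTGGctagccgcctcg

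A related element, ERSE-II (ATTGGNCCACG, with the same half-sites closer together), stood in 0.037% of windows and in those of Herpud1 and Dnajb11. In Dnajb11 it lay after the start, at bases 7 to 17, and is not printed. In Herpud1 it lay before the start (chr8:94386365-94386399, plus strand).
Herpud1: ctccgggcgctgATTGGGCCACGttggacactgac

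Values are log2 array signals. A change is the ascites mean minus the FBS mean, given with its standard error (SE), and adjusted p values are those of limma over all 12394 genes with Benjamini-Hochberg adjustment. A gene is said to have fallen or risen where the adjusted p was below 0.05. Signals of different genes come from different probes and are not set against each other.

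Most of the 38 listed ER genes read lower in ascites than in FBS. Of the 38 genes, 33 had a lower mean in ascites, where 49.5% of all genes did, and the median log2 change was -0.42 against 0.00 over all genes. After adjustment 6 fell (Hsp90b1, Dnajc3, Creld2, Manf, Pdia6 and Derl2), where 2.59% of all genes fell. None rose by limma, where 2.69% of all genes rose, and Herpud1 and Atf6 were higher at an unadjusted p below 0.05. At that unadjusted level 23 genes were lower, where 12.5% of all genes were, and the 2 higher ones compare with 11.7% of all genes. Both ascites arrays lay below all FBS arrays for 29 of the 38 genes (19.4% of all genes) and above them for 2 (18.6%).

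**Figure D1:**
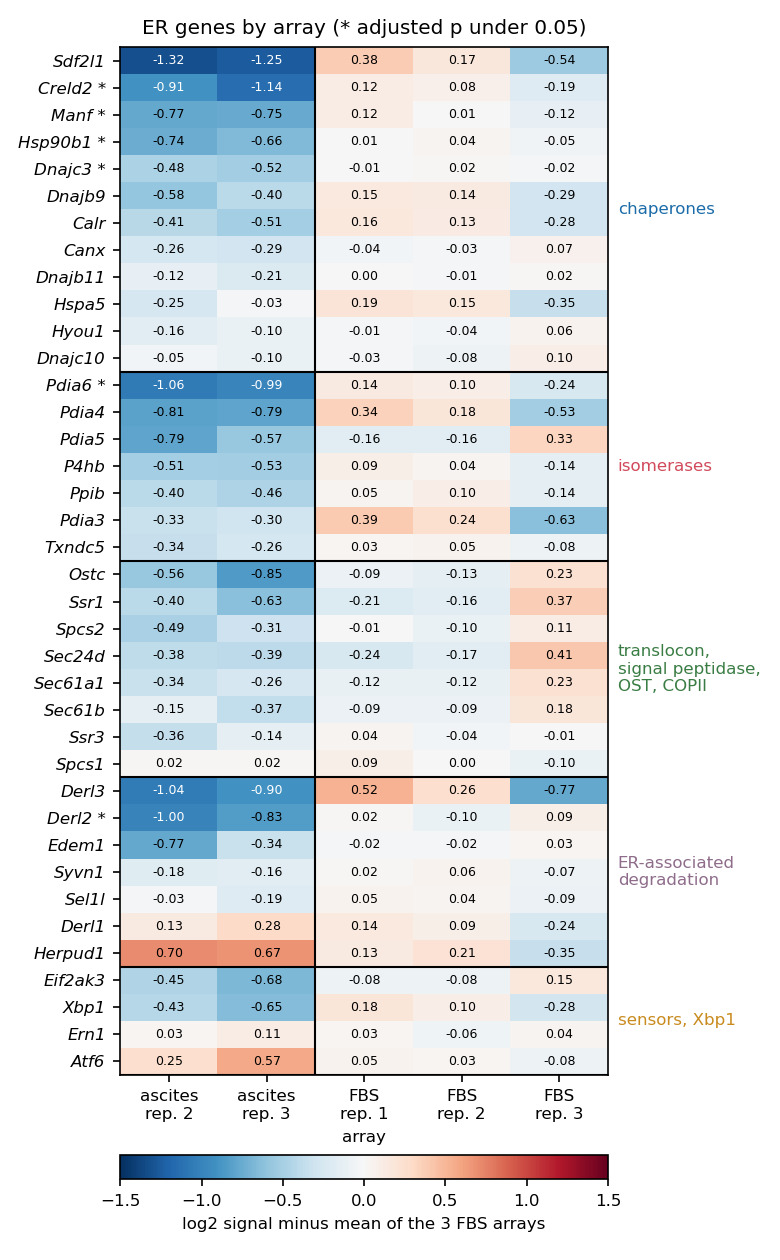
Log2 signal of 38 ER genes on each array (columns: 2 ascites arrays, then 3 FBS arrays) minus the mean of the 3 FBS arrays, printed in each cell and coloured from blue (lower) to red (higher), with genes grouped by role and ordered by change. Both ascites columns are lower than the FBS mean for most chaperones and isomerases and higher for Herpud1 and Atf6, and FBS replicate 3 differs from the other FBS arrays in both directions.

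FBS replicate 3 stood apart. Over all genes it differed from FBS replicates 1 and 2 by an SD of 0.427 each, while those 2 differed from each other by 0.117 and the ascites arrays by 0.239. Over the ER genes it differed from replicate 1 by 0.425 and from replicate 2 by 0.380, against 0.0740 between replicates 1 and 2. Its deviation from the mean of replicates 1 and 2 varied with role: the median was -0.13 over the chaperones, -0.22 over the isomerases and 0.31 over the translocon group. The calls depend on the arrays used: 0 ER genes passed when FBS replicate 1 or FBS replicate 2 was left out. In each of these fits 15 ER genes were lower and 1 was higher at an unadjusted p below 0.05. Over all genes 2088 and 2017 reached that level, in either direction. The share of all genes that was lower was not taken in these fits, so the 15 have no background there. Without ascites replicate 2 or ascites replicate 3 only 1 ascites array remains, and the median change of the ER genes was -0.38 or -0.40. When FBS replicate 3 was left out, 19 fell (10.9% of all genes) and 1 rose (9.17% of all genes), but the FBS spread then rests on 2 arrays that are nearly alike.

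Among the 12 chaperones and co-chaperones, all had a lower mean in ascites, 4 fell, and the median change was -0.48. Hspa5, the most general ER chaperone, read 13.74 and 13.96 in the ascites arrays, against 14.18, 14.14 and 13.64 in the FBS arrays. The groups overlapped, since FBS replicate 3 had the lowest signal of the 5 arrays. The change was -0.14 (SE 0.20, 95% confidence interval -0.69 to 0.41, adjusted p = 0.729), and without FBS replicate 3 it was -0.31 (adjusted p = 0.129). By an exact permutation test over the arrays, two-sided, p was 0.6, and the smallest value that 3 against 2 arrays can give is 0.1. A second probe set of Hspa5 changed by -0.08. The interval includes a fall to 0.621-fold and a rise to 1.33-fold, so these arrays do not settle whether Hspa5 transcript moved.

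Hsp90b1, the ER member of the HSP90 family, read 11.90 and 11.98 in ascites, against 12.65, 12.68 and 12.59 in FBS. The ascites arrays lay well below the FBS arrays, which were close together, including replicate 3. It fell by 0.70 on the log2 scale (SE 0.06, adjusted p = 0.0191), or 1.62-fold, and its other probe set changed by -0.44.

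Dnajc3, which encodes the co-chaperone p58IPK, read 10.76 and 10.72 in ascites and 11.23, 11.26 and 11.22 in FBS. Its FBS arrays were the closest together of the 6 genes that fell. The change was -0.50 (SE 0.05, adjusted p = 0.0229), and -0.51 without FBS replicate 3. All 4 of its further probe sets were lower in ascites, by 0.18 to 0.82.

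Creld2, an ER stress-inducible protein with isomerase-like motifs, read 9.39 and 9.16 in ascites and 10.42, 10.38 and 10.11 in FBS. The change was -1.03 (SE 0.13, adjusted p = 0.0364), a 2.04-fold lower level. Manf, a secreted partner of HSPA5 that is induced by ER stress, read 11.75 and 11.77 in ascites and 12.64, 12.53 and 12.40 in FBS. It fell by 0.76 (SE 0.09, adjusted p = 0.0292). In Creld2 and in Manf FBS replicate 3 was the FBS array nearest to the ascites arrays, yet the groups stayed apart. Each is represented by a single probe set.

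Sdf2l1, which works with the HSPA5 co-chaperone ERdj3, had the largest change of the 38 genes and did not pass. It read 8.61 and 8.68 in ascites and 10.31, 10.10 and 9.39 in FBS. The change was -1.29 (SE 0.30, adjusted p = 0.0922), and -1.56 without FBS replicate 3 (adjusted p = 0.0106). The spread among the FBS arrays was wide, and FBS replicate 3 lay between the other FBS arrays and the ascites arrays.

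The lectin chaperones and the other J proteins did not pass. Calr, calreticulin, changed by -0.46 (adjusted p = 0.186) and its further probe sets by -0.47 and -0.56. Canx, calnexin, changed by -0.28 (adjusted p = 0.0807), with further probe sets at -0.24 and 0.31. Dnajb9 (ERdj4), which draws HSPA5 onto IRE1, changed by -0.49 (adjusted p = 0.187). Dnajb11 (ERdj3) changed by -0.17, Hyou1, the nucleotide exchange factor of HSPA5, by -0.13, and Dnajc10 (ERdj5), a disulfide reductase, by -0.07. The last 3 had 95% confidence intervals that lay between -0.31 and 0.13, narrower than that of Hspa5. These intervals hold for the probe set used. Further probe sets of Dnajc10 changed by -0.34 and -0.29, both below its interval of -0.27 to 0.13, and those of Hyou1 by 0.03 and 0.003.

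**Figure D2:**
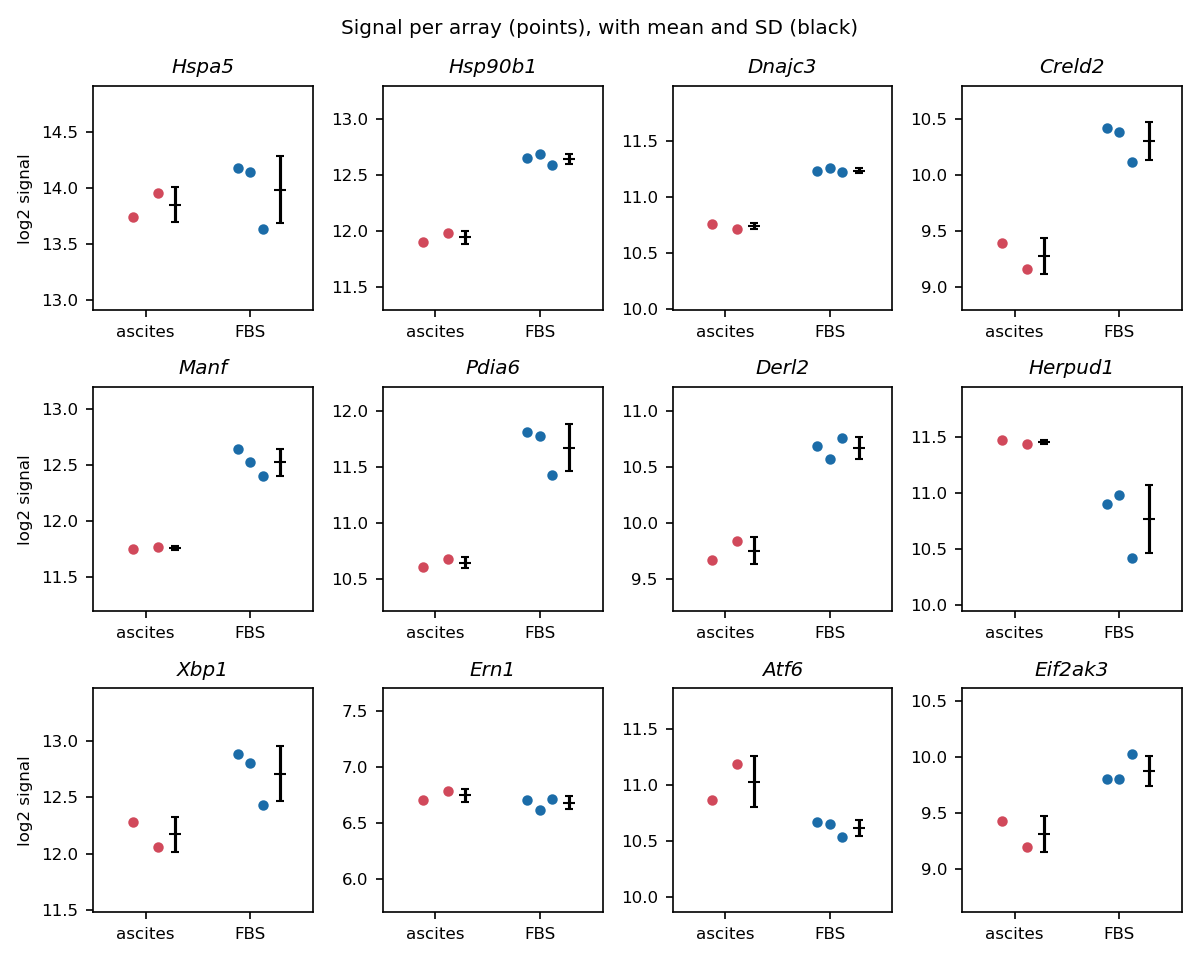
Log2 signal of 12 genes on each array, ascites (red, 2 arrays) to the left of FBS (blue, 3 arrays, in replicate order), with group mean and SD in black; each panel spans 2 log2 units. Ascites and FBS points are apart for the 6 genes that fell and overlap for Hspa5 and Ern1, with FBS replicate 3 the lowest FBS array in 9 of the panels, among them Hspa5, Pdia6, Herpud1 and Xbp1.

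All 7 isomerases had a lower mean in ascites, with a median change of -0.52, and 1 fell. Pdia6, which also associates with HSPA5, read 10.61 and 10.68 in ascites, against 11.81, 11.77 and 11.43 in FBS. It fell by 1.03 (SE 0.14, adjusted p = 0.0382), or 2.03-fold, and a dim second probe set changed by -0.63. FBS replicate 3 was the lowest FBS array and still lay above the ascites arrays.

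P4hb, the classical protein disulfide isomerase and a subunit of collagen prolyl hydroxylase, changed by -0.52 (SE 0.09, adjusted p = 0.0545). Ppib (cyclophilin B), a prolyl isomerase, changed by -0.43 (adjusted p = 0.0789) and Txndc5 by -0.30 (adjusted p = 0.0848). Pdia5 changed by -0.68 (adjusted p = 0.129). In these 4 genes both ascites arrays lay below all FBS arrays. Pdia4 (ERp72) read 9.76 and 9.78 in ascites and 10.91, 10.75 and 10.04 in FBS. Its change of -0.80 had a wide error (SE 0.29, adjusted p = 0.201).

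Pdia3 (ERp57), the partner of calnexin and calreticulin, read 12.18 and 12.21 in ascites and 12.90, 12.75 and 11.88 in FBS. Here FBS replicate 3 was below the ascites arrays and the groups overlapped. The change was -0.32 (SE 0.34, adjusted p = 0.635), and -0.63 without that array (adjusted p = 0.0220). When FBS replicate 3 was left out, all 7 isomerases fell.

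The translocon group, with signal peptidase, an oligosaccharyltransferase subunit and a COPII coat subunit, had 8 measured genes. Of these 7 had a lower mean in ascites, 0 fell by limma, 3 were lower at an unadjusted p below 0.05, and the median change was -0.34. Ostc, the oligosaccharyltransferase subunit and the member with the smallest p, read 11.77 and 11.48 in ascites, against 12.24, 12.20 and 12.56 in FBS. The change was -0.71 (SE 0.16, adjusted p = 0.0843). FBS replicate 3 was here the highest of the 5 arrays.

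Ssr1, a subunit of the translocon-associated complex TRAP, changed by -0.52 (SE 0.22) with FBS replicate 3 above replicates 1 and 2 by 0.56. Without that array the change was -0.33. Sec24d, a cargo-binding COPII subunit for export from the ER, changed by -0.39 with all arrays and by -0.18 without that array. Sec61a1, the channel-forming subunit, changed by -0.30 with all arrays and by -0.18 without it. The median of the group was -0.22 without FBS replicate 3, and 0 of its genes fell in that fit, where 10.9% of all genes fell. In the same fit the medians of the chaperones and isomerases were -0.56 and -0.59. The signal peptidase subunits differed: Spcs2 changed by -0.40 (adjusted p = 0.0970) and Spcs1 by 0.02 (95% confidence interval -0.18 to 0.22). Sec61b (-0.26) and Ssr3 (-0.25) lay between them.

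**Figure D3:**
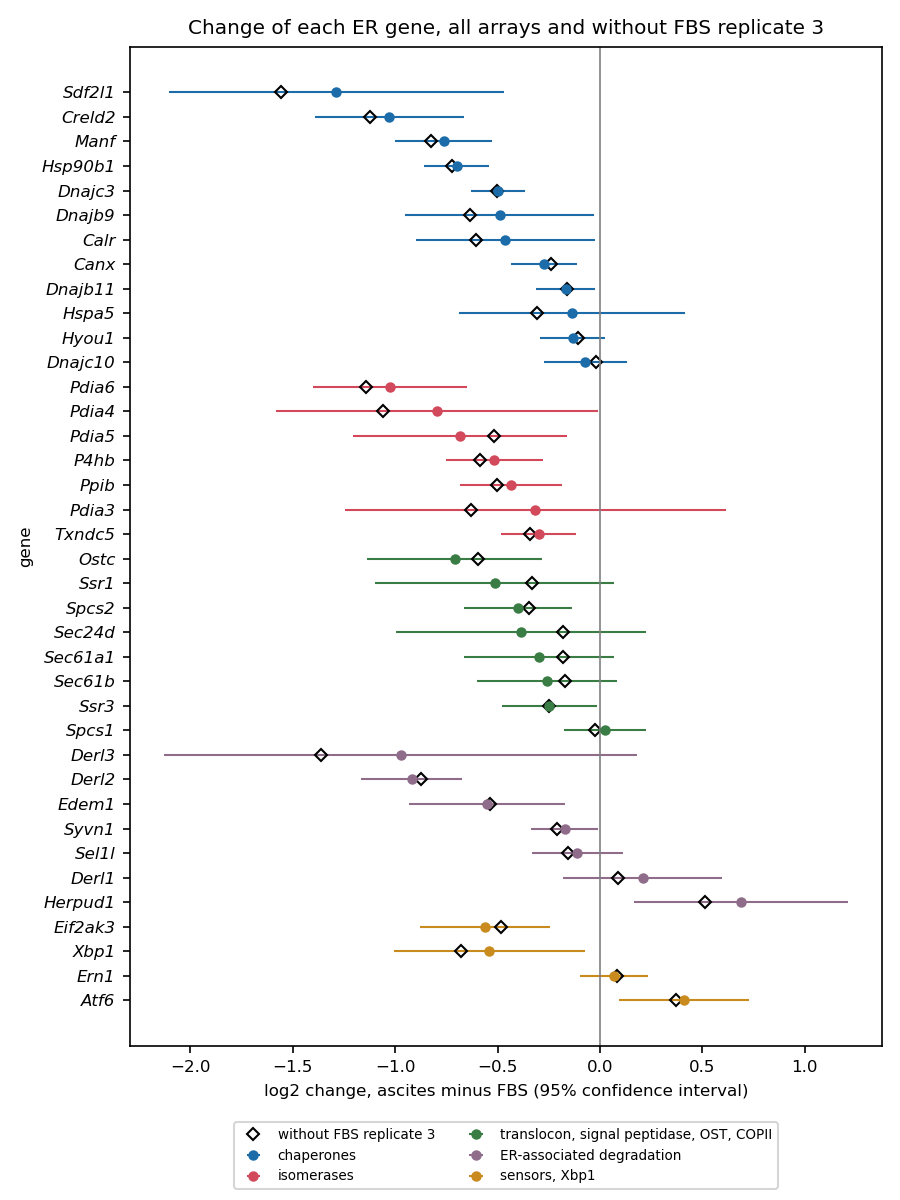
Log2 change of each ER gene, ascites minus FBS (filled circles, coloured by role, bars give the 95% confidence interval from limma), and the same change without FBS replicate 3 (open diamonds). Leaving out that array moves most chaperones and isomerases further below 0 and most translocon genes nearer to 0, for example Sdf2l1 (-1.29 with all arrays, -1.56 without it) and Sec24d (-0.39 with all arrays, -0.18 without it).

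ERAD genes differed in direction. Derl2, a derlin of the channel that returns misfolded chains to the cytosol, fell by its brighter probe set, with 9.67 and 9.84 in ascites and 10.69, 10.57 and 10.76 in FBS (change -0.92, SE 0.09, adjusted p = 0.0237). Its other probe set was higher in ascites, at 8.84 and 8.96, against 8.60, 8.51 and 8.25 in FBS (change 0.45, adjusted p = 0.140 over all probe sets). The direction of Derl2 therefore depends on the probe set. Derl3, the derlin most tied to ER stress, read 6.83 and 6.97 in ascites and 8.39, 8.13 and 7.10 in FBS. Its change was -0.97 (SE 0.43, adjusted p = 0.272), and FBS replicate 3 read close to the ascites arrays. Derl1 changed by 0.21 by a probe set ending in _s_at, which may read related transcripts, and by 0.23 by another of that type. Its further probe sets without that ending changed by -0.32 and -0.20, so its direction also depends on the probe set.

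Herpud1, a scaffold of the HRD1 ubiquitin ligase complex, had the largest positive change of the 38 genes and did not pass. It read 11.47 and 11.44 in ascites, against 10.90, 10.98 and 10.42 in FBS, so every ascites array was above every FBS array. The change was 0.69 (SE 0.19, adjusted p = 0.127), a second probe set changed by 0.62, and without FBS replicate 3 it rose by 0.52 (adjusted p = 0.0170). The ubiquitin ligase gene Syvn1 (HRD1) changed by -0.17 and its adaptor Sel1l by -0.11. Further probe sets of Sel1l changed by 0.32, -0.01 and 0.04, so its direction also depends on the probe set. Edem1, which delivers misfolded glycoproteins to ERAD, changed by -0.55 (adjusted p = 0.109), and its second probe set by -1.19 (adjusted p = 0.0617 over all probe sets).

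The sensors differed in direction, and none passed by limma; at an unadjusted p below 0.05 Eif2ak3 and Xbp1 were lower and Atf6 was higher. Ern1 (IRE1) read 6.71 and 6.79 in ascites and 6.71, 6.62 and 6.72 in FBS, a change of 0.07 (95% confidence interval -0.10 to 0.23). It was dim, and its further probe sets changed by -0.12 and 0.18. Atf6 read 10.87 and 11.19 in ascites and 10.67, 10.65 and 10.54 in FBS, higher on each ascites array (change 0.41, SE 0.12, adjusted p = 0.130).

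Eif2ak3 (PERK) read 9.43 and 9.20 in ascites and 9.80, 9.80 and 10.03 in FBS, lower on each ascites array (change -0.56, SE 0.12, adjusted p = 0.0769). Xbp1 read 12.28 and 12.06 in ascites and 12.89, 12.81 and 12.43 in FBS (change -0.54, SE 0.17, adjusted p = 0.160). Without FBS replicate 3 Xbp1 fell by 0.68 (adjusted p = 0.0341), and its further probe sets changed by -0.30, -0.36 and 0.03. The level of Xbp1 RNA does not show how much of it was spliced.

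Genes of the same pathways outside the 39 were taken from 7 lists with 112 measured genes, of which 6 fell and 4 rose, where 2.59% of all genes fell and 2.69% rose. Both counts were 0 when FBS replicate 1 or FBS replicate 2 was left out, as was the count over all genes. Without FBS replicate 3, 19 fell and 14 rose, where 10.9% of all genes fell and 9.17% rose. By mean, 57 of the 112 genes were lower in ascites and 55 higher. Among 24 other folding and redox genes 13 had a lower mean and 11 a higher one, with a median change of -0.07. Of these 2 fell and 1 rose. Ero1a, the oxidase that recharges protein disulfide isomerase, read 11.46 and 11.75 in ascites, against 10.01, 10.00 and 9.98 in FBS, a 3.05-fold rise (adjusted p = 0.0158). Its paralog Ero1b read 8.33 and 8.35 in ascites and 8.85 on each FBS array, and fell by 0.51 (adjusted p = 0.0213). Prdx4, a peroxiredoxin of the ER, fell by 1.23 (adjusted p = 0.0196). The 2 oxidase genes thus changed in opposite directions in the same arrays.

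Among 16 other translocon and signal recognition genes 1 fell and 0 rose by limma, with 3 lower and 1 higher at an unadjusted p below 0.05. The gene that fell was Tram1, a membrane protein beside the channel, with 10.96 and 10.98 in ascites and 12.06, 12.03 and 12.32 in FBS (change -1.17, adjusted p = 0.0218). The 13 oligosaccharyltransferase and glycosylation genes had a median change of -0.21, with 9 lower means in ascites, 7 genes lower and 3 higher at an unadjusted p below 0.05, and 0 fallen by limma. Of them 2 rose, Krtcap2, an oligosaccharyltransferase subunit, by 0.52 (adjusted p = 0.0394) and Alg5 by 0.40 (adjusted p = 0.0439). Of 20 other ERAD genes 9 had a lower mean in ascites and 11 a higher one, with a median change of 0.01. Of them 3 fell: Selenok by 0.40, Edem2 by 0.62 and Edem3 by 0.40 (adjusted p from 0.0328 to 0.0439). The 18 other genes of COPII and ER exit included 0 that passed, with 5 lower at an unadjusted p below 0.05, and the smallest p was that of the cargo receptor gene Surf4 (change -0.67, adjusted p = 0.0579). The 10 other regulators of the unfolded protein response also included 0 that passed, with 1 lower at an unadjusted p below 0.05, Bak1 (change -0.41, adjusted p = 0.0873).

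Genes of the PERK arm and the integrated stress response mostly had higher means in ascites. Of 11 measured, 10 had a higher mean in ascites, and the median change was 1.38. After adjustment 1 rose, Asns (asparagine synthetase), by 0.82 (adjusted p = 0.0185), where 2.69% of all genes rose. At an unadjusted p below 0.05 by limma 10 were higher, where 11.7% of all genes were. Both ascites arrays lay above all FBS arrays for 10 of the 11 genes (18.6% of all genes). Ddit3, which encodes CHOP, read 10.88 and 11.70 in ascites and 9.75, 9.73 and 9.90 in FBS (adjusted p = 0.0575), so every ascites array was above the FBS arrays.

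**Figure D4:**
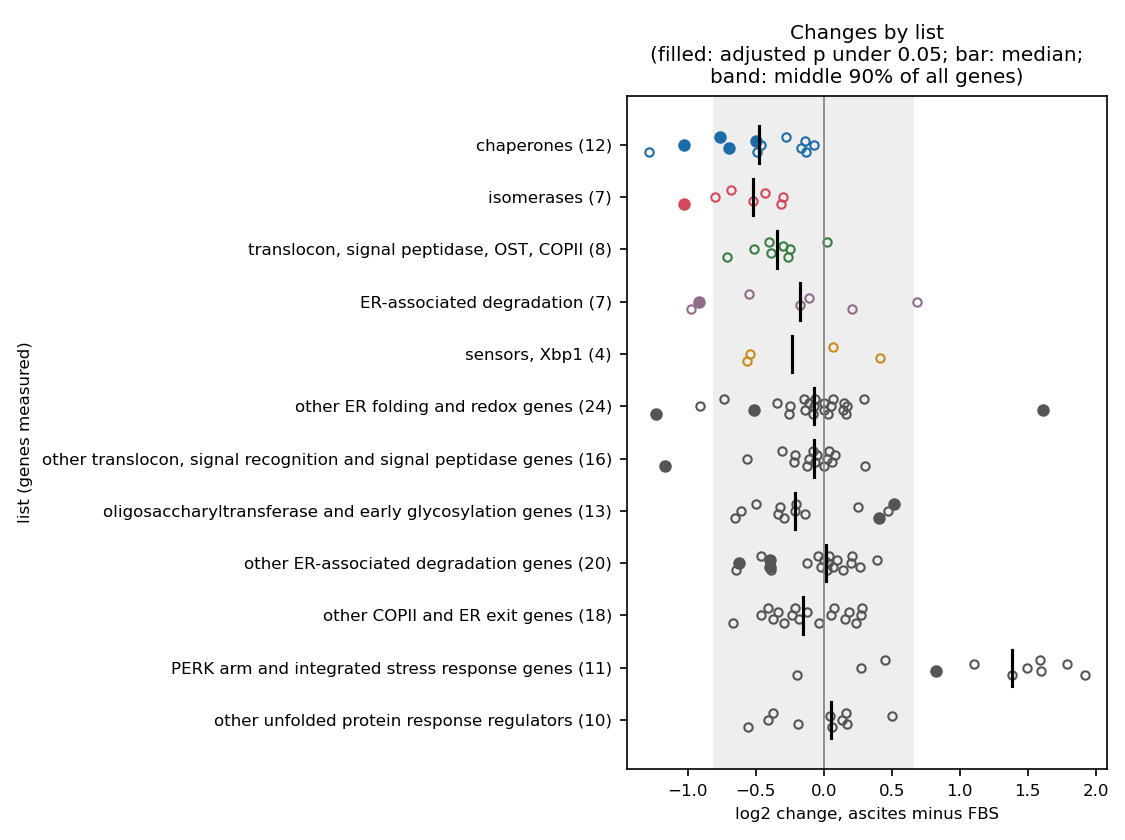
Log2 change, ascites minus FBS, of each measured gene in the 5 role groups (coloured) and in 7 lists of related genes (grey), with filled points for an adjusted p below 0.05, a black bar at the median, and a shaded band that holds the middle 90% of all genes. The chaperone and isomerase medians are -0.48 and -0.52, that of the PERK arm is 1.38, and those of the other related lists lie between -0.21 and 0.05.

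Among the genes with an ERSE, shown above, all 9 listed ER genes were lower in ascites, 4 fell, and the median change was -0.50. Over all genes 49.5% were lower and 2.59% fell. The 23 measured genes of the list whose window held no exact ERSE had a median of -0.40, with 20 lower and 1 fallen. The difference between these medians was not tested. Hspa5 and Syvn1 carry the element and had changes of -0.14 and -0.17. Outside the list 9 measured genes held an ERSE. Of these 6 were lower (49.5% of all genes) and 1 fell (2.59% of all genes), Ero1b. Their median was -0.06, with the mannosyltransferase gene Alg12 at -0.39.

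Of the 2 listed ER genes with an ERSE-II, Herpud1 had a higher mean in ascites and Dnajb11 a lower one. Outside the list, 6 of 6 measured genes with an ERSE-II were higher in ascites (median 0.42) and 2 rose, Krtcap2 and the splicing factor gene Rbm39 (0.73, adjusted p = 0.0428). Over all genes 6253 of 12394 were higher and 2.69% rose. With Herpud1 (0.69) and Dnajb11 (-0.17) the genes with an ERSE-II number 8, too few for more than a description. The windows of Herpud1 and Txndc5 (change -0.30) also held TGATGNAA, a core of the elements read by ATF4 with C/EBP proteins, which occurs in 3.97% of all windows. The 307 other measured genes with this core had a median change of 0.01. Of these 20 rose and 7 fell, where 2.69% of all genes rose and 2.59% fell. The XBP1-binding core TGACGTGG, which overlaps the CCACG half-site of the ERSE on the other strand, was in the windows of Txndc5 and Sec24d and in 0.676% of all windows.

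**Figure D5:**
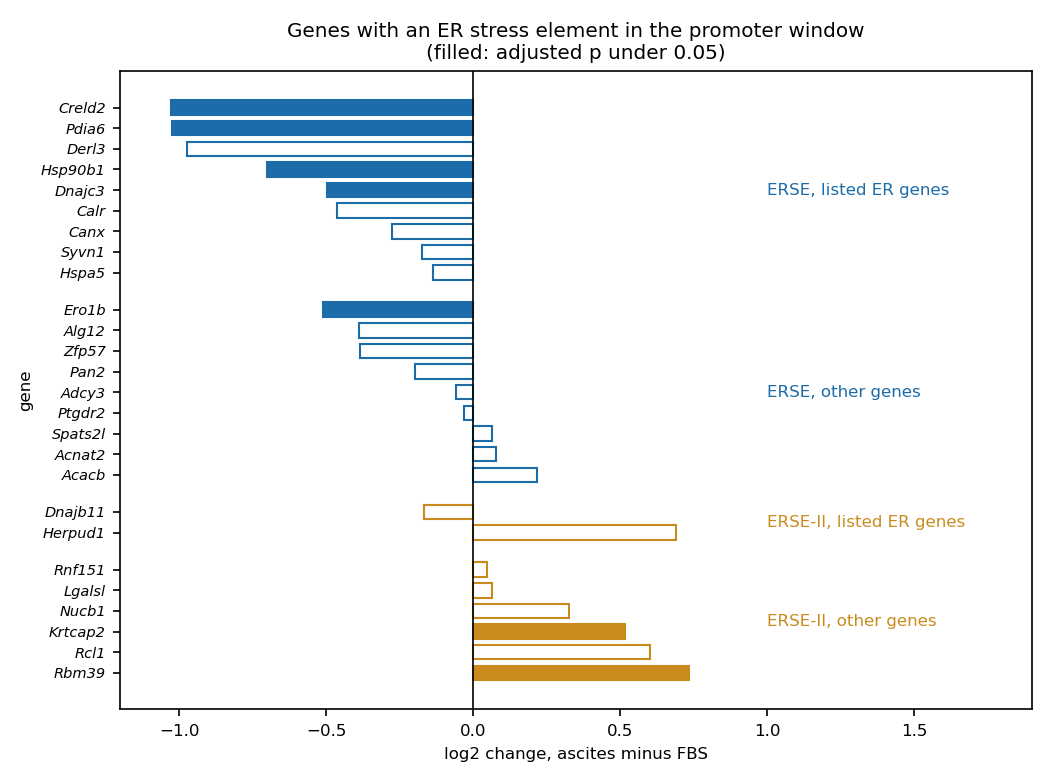
Log2 change, ascites minus FBS, of every measured gene with an exact ERSE (blue) or ERSE-II (yellow) in its promoter window, split into the listed ER genes and all others; bars start at 0 and are filled for an adjusted p below 0.05. All 9 listed ER genes with an ERSE are below 0, where 49.5% of all genes are. With an ERSE-II, 6 of 6 other genes and Herpud1 are above 0, and Dnajb11 is below it.

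In bulk RNA, fewer cells that express a gene and less RNA per cell cannot be told apart. Markers of macrophages, T and NK cells, B and plasma cells, neutrophils, endothelium and red cells were mostly dim. Of 34 measured, 0 passed by limma and 2 had an unadjusted p below 0.05. The monocyte marker Cd14 was brighter, at 7.63 and 7.15 in ascites and 6.60, 6.70 and 7.74 in FBS (change 0.38, SE 0.42). Plasma cells are rich in ER, and their marker Jchain read 3.80 and 4.01 in ascites and 3.80 on each FBS array. Most markers of ID8 identity were lower too: 8 of 10 had a lower mean in ascites, where 49.5% of all genes did. Krt18 and Krt19 fell, where 2.59% of all genes fell. The largest change was that of Bnc1 (-3.19, adjusted p = 0.0605 by limma), while Msln (0.37) and Cdh1 (0.05) had higher means. The mean signal of the 10 markers was 9.82 and 9.52 in the ascites arrays, against 11.15, 11.15 and 10.26 in the FBS arrays, with FBS replicate 3 between the others. FBS replicate 3 was below the mean of FBS replicates 1 and 2 for all 10 markers, whereas its median deviation over the translocon group was 0.31. Cdh1 and Epcam were dim in every array, at 5.61 to 6.05. The part of these shifts in the ER changes was not tested.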

How the data were processed

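Total RNA of 5 ID8 samples was hybridised to Affymetrix mouse arrays, 1 array per sample. The submitters' processing notes name Affymetrix Expression Console; the sources used here give no version, summarisation method or detection calls. From their range, the deposited values were read as log2 signals. Array medians were 7.40 to 7.47 and were left as they were, so a change in total RNA could be hidden. The number of arrays limits the precision.

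Of 22690 probe sets, 20393 were annotated to 1 gene. limma 3.58.1 in R 4.3.3 was fitted to 12394 genes (lmFit and eBayes, two-sided, no covariate, 3 residual degrees of freedom, threshold 0.05); the code was tested on simulated data. Groups follow the sample titles. The members, related lists, motifs and promoters shown were chosen with earlier results of these data known. Named genes were all members, with values per array for those past the threshold, Hspa5, the sensors, Xbp1 and the smallest p of a role group without a call, and, of each related list, up to 4 past the threshold or the smallest p. Sdf2l1, Pdia3, Pdia4, Derl3, Herpud1, Ddit3, Jchain, Cd14 and the genes with a motif were described after their values were seen. Probe sets ending in _s_at or _x_at, among them those of Canx, Hyou1 and Derl1, may read related transcripts. Alternatives left out each array, averaged FBS replicates 1 and 2, added the replicate number as a block, or changed normalization, filter, probe set rule, array weights or variance trend; a fit of every probe set was added after seeing the data.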

Additional observations from a re-analysis of the deposited data

How the results depend on the processing

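Leaving out 1 array gave 0 to 2494 genes called in all, 0 to 19 ER genes fallen, 0 to 1 risen, and 0 to 19 fallen and 0 to 14 risen among related pathway genes, in each case with the highest count without FBS replicate 3. Counts of genes called, ER genes fallen, and related genes fallen and risen were all 0 with FBS replicates 1 and 2 averaged as 1 sample (2128 genes at an unadjusted p below 0.05). With the replicate number as a block the same 4 counts were also 0 (1892 genes). Same-numbered arrays deviated together only weakly (r = 0.03 and 0.04 over genes), nothing in the labels pairs them, and with 2 pairs the numbers were not taken as pairing. Array weights, which gave FBS replicate 3 a weight of 0.186, called 2612 genes, with 20 ER genes fallen and 1 risen (Herpud1), and 21 related genes fallen and 15 risen. In that fit 11.1% of all genes fell. Averaging the probe sets of a gene left 3 ER genes fallen, since Dnajc3, Pdia6 and Derl2 no longer passed. In that fit 2.66% of all genes fell. A variance trend left 3 related genes fallen, where 1.84% of all genes fell. With quantile normalization 8 related genes rose, and 885 genes were called in all, in either direction. With the lowest 25% of genes left out 7 related genes rose, and 884 genes were called in all. The share of all genes that rose was not taken in these fits. The median of the sensors and Xbp1 ran from -0.27 to -0.19 when 1 array was left out, and was -0.19 with the block, -0.10 with probe sets averaged and -0.20 with array weights. The medians of the other 4 role groups stayed below 0 and moved by less than the SD of that median between FBS arrays. That SD includes FBS replicate 3, so leaving out 1 FBS array could hardly move a median by more. The comparison therefore does not show that the medians are stable. That of the translocon group was -0.34 with all arrays and -0.22 without FBS replicate 3. Small changes turned sign: Spcs1 lay between -0.025 (without FBS replicate 3) and 0.070 when 1 array was left out, and was -0.018 with probe sets averaged and -0.017 with array weights, and, with probe sets averaged, Sel1l to 0.060 and Derl1 to -0.021. Hspa5 stayed negative and did not pass in any of these fits. The cause of these differences was not tested, beyond the fewer arrays in some fits. With no detection call, the signal of dim genes such as Ern1 and Derl3 could not be set against background.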
